A study of Mus musculus with 2 samples.

Results

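The antimicrobial secretions of airway and alveolus are taken here as 10 genes, Lyz1, Lyz2, Lcn2, Ltf, Slpi, Pigr, Saa3, Reg3g, S100a8 and S100a9, of the 20660 genes that could be named on the arrays. A probe was assigned to a gene through its RefSeq accession. The 10 genes have 11 probes on each array, 2 for Pigr and 1 for each of the others, and each of these probes is printed at 1 spot.

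The study compared lung epithelial cells labelled Mob1DKO with lung epithelial cells of wild-type mice (WT), both of strain C57BL/6 and 10 weeks of age. The labels spell Mob1DKO out no further than as Mob1 DKO, and give neither a Cre driver or promoter, nor the number of animals, nor how the cells were isolated. Total RNA of each group was hybridised in 1 colour (Cy3) to 1 Agilent array, so no replicate exists, no test was possible, and every difference below compares those 2 hybridisations. MOB1A and MOB1B are adaptor proteins of the Hippo pathway, which restrains the co-activators YAP1 and TAZ and their TEAD partners.

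The lining of the lung is kept nearly free of microbes by proteins that its epithelium releases into the airway fluid. Some attack bacteria directly, some withhold iron, zinc or manganese, some protect tissue from neutrophil proteases, and one receptor carries antibodies to the lumen. Several of these proteins are also stored in neutrophils or macrophages, and several are induced during infection by cytokines such as IL-17 and IL-22.

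Levels are given as the processed signal, which is the scanner software's background-subtracted brightness, and as the log2 of that signal relative to the array's own 75th percentile. A gene was called where the Mob1DKO level was at least 2-fold from the WT level and its brighter spot was well above background by the scanner's test. The 75th percentile of signal was 291 in Mob1DKO cells against 155 in WT cells, and 58.6% of Mob1DKO and 53.1% of WT probes were well above background. The error of a single spot was taken from probes printed at 10 spots, all of them well above background on both arrays. The SD of a difference was 0.089 (log2) for such probes above the 75th percentile and 0.29 for those below it, which covers error within an array only. It does not describe spots near background. The scanner software's own error gave a larger SD of the difference, 0.99 for S100a8, 1.48 for S100a9 and 0.20 for every other member probe. Mob1b was 6.48-fold and 4.0-fold lower on the Mob1DKO array by its probes. Its signals were dim, 21.1 and 36.9 in Mob1DKO cells against 72.7 and 78.5 in WT cells, which limits both folds. Mob1a differed by 0.07. Whether these probes lie in a deleted part of either gene is not known here, so the Mob1a value checks nothing. Xist was 4.65-fold and 4.90-fold lower, and the Y-linked genes Ddx3y and Eif2s3y at least 22.7-fold and 29.6-fold higher, on the Mob1DKO array, so sex and genotype cannot be told apart in any result here. The epithelial marker Epcam differed by 0.18 and Sftpc, the alveolar type 2 surfactant protein, by −0.78, with both genes well above background throughout.

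On both arrays 8 of the 10 genes passed the background test, and S100a8 and S100a9 passed it on the Mob1DKO array only. The 2-fold rule called 3 of the 10, S100a8 and S100a9 higher and Reg3g lower. Over all 15099 genes that passed on 1 array or both it called 6.70% in either direction, 3.79% higher and 2.91% lower. Both S100 genes stood near background and were kept through the Mob1DKO array alone, which selects for a higher difference, as described with them. Among the 8, Reg3g was called lower on the Mob1DKO array and none was called higher, where the same rule called 1.43% of the 13866 genes measured on both arrays lower and 1.25% higher. Pigr was 1.82-fold higher by its brighter probe and Ltf 1.94-fold lower, both just inside the 2-fold limit. The dimmer Pigr probe differed in the other direction. Lcn2 and Slpi were each 1.29-fold higher, and Lyz1, Lyz2 and Saa3 had log2 differences between −0.18 and −0.05. In RNA from many cells, fewer cells of a type and less RNA per cell cannot be told apart. The median difference of the 8 was −0.093, against 0.01 for all genes measured on both arrays.

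**Figure D1:**
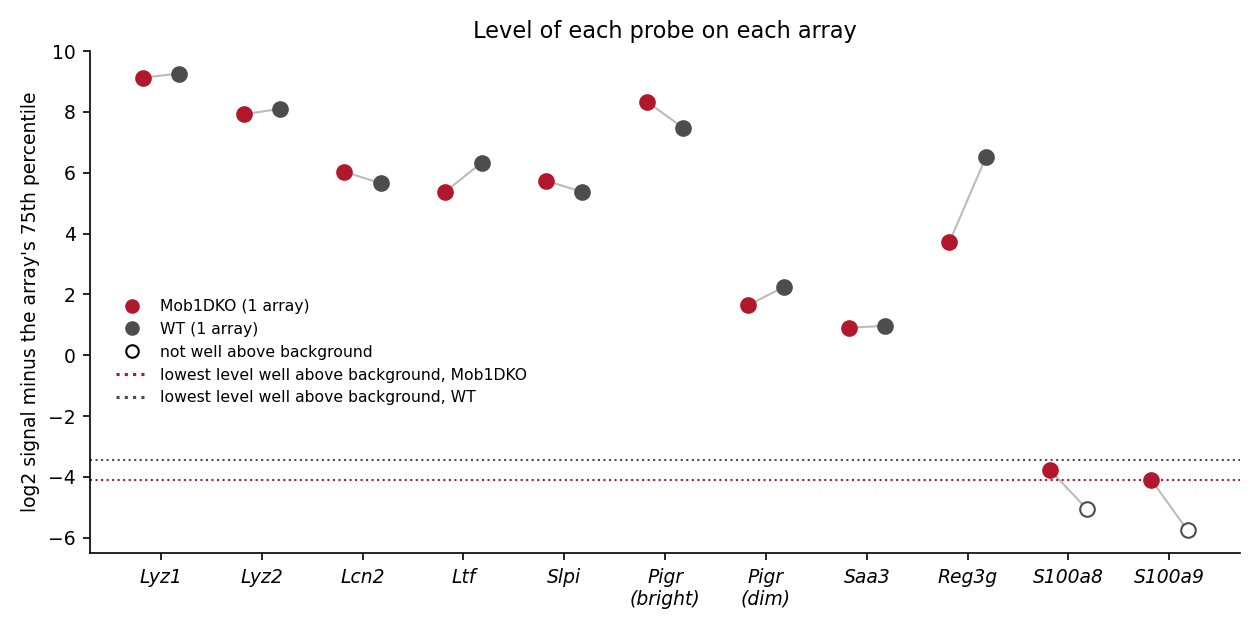
The level of each probe on the Mob1DKO array (red, left) and the WT array (grey, right), as log2 signal minus the 75th percentile of that array; open circles are not well above background and dotted lines give the lowest level that was. Reg3g has the widest gap, 3.73 on the Mob1DKO array against 6.50 on the WT array, and only S100a8 and S100a9 lie near the dotted lines; probes of different genes bind with different strength, so heights are compared only between the arrays.

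Lysozyme cuts the peptidoglycan of bacterial cell walls, and the mouse carries a pair of neighbouring genes for it. Lyz1, known as the Paneth cell lysozyme and also made by alveolar type 2 cells, had a signal of 162737 in Mob1DKO cells against 94978 in WT cells, levels of 9.13 in Mob1DKO and 9.26 in WT. Lyz2, the lysozyme of macrophages and alveolar type 2 cells, had 70582 in Mob1DKO and 42449 in WT, levels of 7.92 in Mob1DKO and 8.10 in WT. The differences, −0.13 and −0.18, lay 0.04 apart, and each array gave both genes a strong signal. The sign of neither was stable. After quantile normalization Lyz1 was at 0.12 and Lyz2 at −0.09, farther apart than the spot error. Lyz2 was at 0.02 after another background correction, and both lay above 0 with no scaling. The 200 genes nearest to Lyz1 in level had a median difference of −0.15. Because the transcripts are near-identical copies, how far either probe binds the other gene's RNA was not tested.

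The promoters of the lysozyme pair are shown because the differences of both genes, −0.13 and −0.18, lay closer together than the spot error. After quantile normalization they lay farther apart than that error and had opposite signs. In the RefSeq sequences of build GRCm38.p6, which run from 250 bases before to 50 bases after each start, 254 of 310 aligned positions were identical (81.9%). Lyz1 lies on the minus strand at chr10:117292819-117293118 and Lyz2 on the minus strand at chr10:117282223-117282522. Capitals mark the longest run both share, 86 bases from 50 bases before to 36 bases after the start.
Lyz1: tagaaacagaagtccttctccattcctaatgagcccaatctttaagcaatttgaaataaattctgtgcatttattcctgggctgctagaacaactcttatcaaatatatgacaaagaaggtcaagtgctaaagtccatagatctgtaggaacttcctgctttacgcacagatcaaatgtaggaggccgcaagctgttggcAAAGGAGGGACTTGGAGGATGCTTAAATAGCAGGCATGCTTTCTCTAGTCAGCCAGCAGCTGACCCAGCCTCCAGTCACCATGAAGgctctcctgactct
Lyz2: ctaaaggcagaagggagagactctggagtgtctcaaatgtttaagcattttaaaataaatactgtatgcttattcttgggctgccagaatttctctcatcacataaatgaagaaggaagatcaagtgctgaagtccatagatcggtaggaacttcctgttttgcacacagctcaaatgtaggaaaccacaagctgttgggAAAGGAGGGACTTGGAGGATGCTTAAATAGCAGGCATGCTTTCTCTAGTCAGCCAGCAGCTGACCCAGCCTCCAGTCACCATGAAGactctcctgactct

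The iron-withholding members differed in opposite directions. Lcn2, lipocalin 2, which captures the siderophores bacteria use to gather iron, had a signal of 19022 in Mob1DKO cells against 7820 in WT cells, levels of 6.03 in Mob1DKO and 5.66 in WT. Ltf, lactoferrin, which binds iron and is made by airway glands and neutrophils, had 12093 in Mob1DKO and 12466 in WT, levels of 5.38 in Mob1DKO and 6.33 in WT. Lcn2 was 1.29-fold higher and Ltf 1.94-fold lower on the Mob1DKO array, log2 differences of 0.37 and −0.95 that lay 1.33 apart. Before scaling, Ltf had almost the same signal on both arrays. Each sign was the same in all 14 settings of scaling, background and probe choice that were computed for it, Ltf reaching −0.04 with no scaling, which moved the median of all genes by 0.91, and −0.78 under the other background correction (normexp). Of the 200 genes nearest to Ltf in level, 2 lay as far from 0, and of the 200 nearest to Lcn2, 35 did.

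Slpi, the secretory leukocyte protease inhibitor, which blocks neutrophil elastase, had a signal of 15536 in Mob1DKO cells against 6401 in WT cells. Its level was 5.74 in Mob1DKO and 5.37 in WT, a difference of 0.37 like that of Lcn2. Its difference was above 0 in all 14 settings, and 28 of its 200 nearest genes in level lay as far from 0. Elane, the elastase it inhibits, differed by −0.11.

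Pigr, the receptor that carries IgA and IgM across the epithelium and is cut off as secretory component, gave opposite answers from its 2 probes. The brighter probe had a signal of 94082 in Mob1DKO cells against 27542 in WT cells, levels of 8.34 in Mob1DKO and 7.47 in WT, and so was 0.86 higher. The dimmer probe had 908 in Mob1DKO and 735 in WT, levels of 1.64 in Mob1DKO and 2.25 in WT, a difference of −0.60. The gap of 1.47 between the probes is wide: only 1.32% of the 3406 genes with several probes measured on both arrays had one as wide, and the median gap was 0.24. The mean of both probes gave 0.13. By the brighter probe, 6 of the 200 nearest genes in level lay as far from 0, and the other background correction put Pigr at 1.1, past the 2-fold limit. Which probe reads the transcript as it is expressed was not tested.

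Saa3, an acute-phase serum amyloid made locally in the lung, was close to level on both arrays. Its signal was 547 in Mob1DKO cells against 302 in WT cells, levels of 0.91 in Mob1DKO and 0.96 in WT. The difference was −0.05, which scaling to housekeeping genes turned to 0.05, and 158 of its 200 nearest genes in level lay as far from 0 or farther.

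Reg3g, a C-type lectin that binds the peptidoglycan of Gram-positive bacteria and is induced by IL-22 in gut and airway, had the largest difference among the 8 genes. Its signal was 3855 in Mob1DKO cells against 14057 in WT cells, levels of 3.73 in Mob1DKO and 6.50 in WT. It was 6.85-fold lower on the Mob1DKO array, a difference of −2.78. None of its 200 nearest genes in level lay as far from 0, and it ranked 17 from the lowest among the 13866 genes measured on both arrays. It was called lower in all 14 settings, between −2.79 and −1.87.

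**Figure D2:**
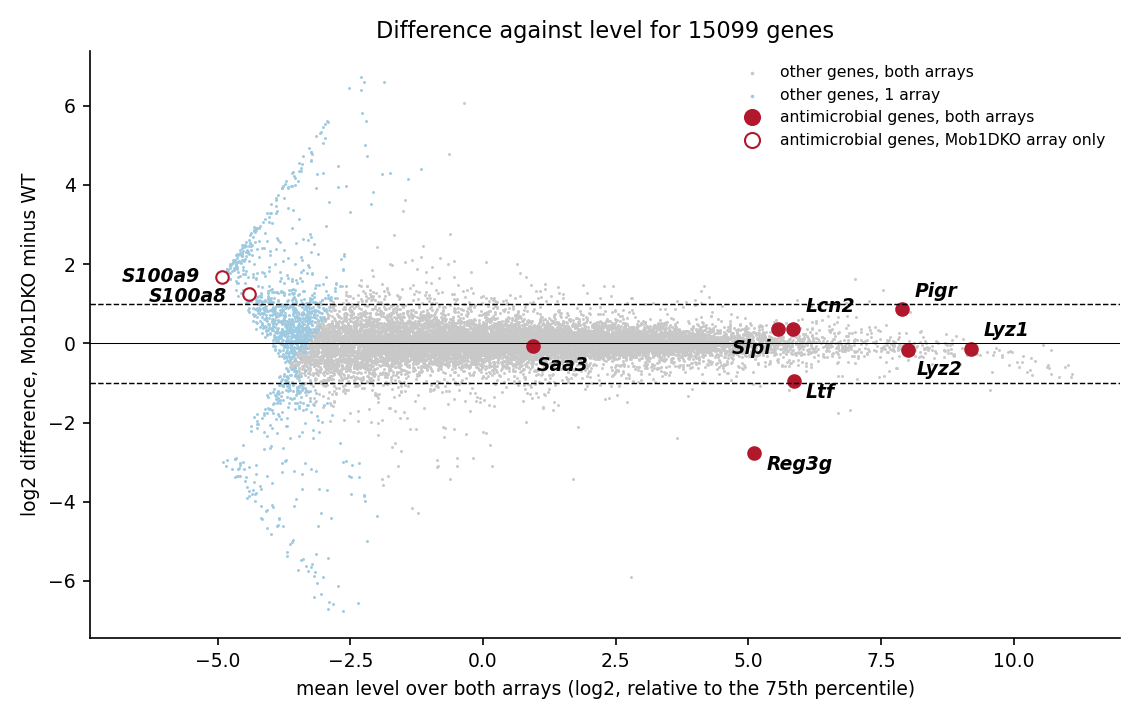
The log2 difference, Mob1DKO minus WT, against the mean level of both arrays for the 15099 genes that passed the background test on 1 array or both; blue points passed on 1 array only, filled red points are the antimicrobial genes on both arrays and open red points those on the Mob1DKO array only. Reg3g at −2.78 lies well below the cloud of genes of its level, while S100a8 and S100a9 lie among the blue points at the dim end.

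The Reg3g promoter is shown because Reg3g is the 1 member called lower among those measured on both arrays. Those of S100a8 and S100a9 are shown because both genes were called higher. Both were near background and passed on the Mob1DKO array only, so the shared direction supports nothing about the pair. In capitals are matches to TATAAA, the TATA box, and in Reg3g also 1 to an NF-kB motif, on either strand. Reg3g lies on the minus strand of build GRCm38.p6 at chr6:78468825-78469124, S100a8 on the plus strand at chr3:90668821-90669120 and S100a9 on the minus strand at chr3:90695672-90695971, all from RefSeq.
Reg3g: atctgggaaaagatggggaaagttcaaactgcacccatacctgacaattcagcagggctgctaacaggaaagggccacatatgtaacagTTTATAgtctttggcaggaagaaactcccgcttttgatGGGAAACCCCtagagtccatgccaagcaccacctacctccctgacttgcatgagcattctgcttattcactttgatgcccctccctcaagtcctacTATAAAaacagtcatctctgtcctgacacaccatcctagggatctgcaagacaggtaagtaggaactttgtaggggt
S100a8: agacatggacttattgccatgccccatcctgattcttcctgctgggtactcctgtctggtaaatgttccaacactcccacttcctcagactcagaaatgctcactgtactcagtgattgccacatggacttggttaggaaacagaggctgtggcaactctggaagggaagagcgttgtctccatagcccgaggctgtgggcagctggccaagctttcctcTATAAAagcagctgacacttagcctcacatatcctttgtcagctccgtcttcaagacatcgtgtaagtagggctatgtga
S100a9: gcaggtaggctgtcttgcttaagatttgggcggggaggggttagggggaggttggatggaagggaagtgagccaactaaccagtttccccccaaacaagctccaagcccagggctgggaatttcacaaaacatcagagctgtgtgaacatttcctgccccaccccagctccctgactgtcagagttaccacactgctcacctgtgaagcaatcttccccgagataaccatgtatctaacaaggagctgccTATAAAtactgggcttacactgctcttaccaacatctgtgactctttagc
The Reg3g promoter holds TATAAA from 27 to 22 bases before the start, and a second match on the opposite strand from 161 to 156 bases before it. Its NF-kB match runs from 123 to 114 bases before the start. The S100a8 match runs from 30 to 25 bases before the start and that of S100a9 begins 1 base after it. Of 32851 promoters of this length, 13.6% hold TATAAA and 8.46% the NF-kB motif. GGAATG, the core of the TEAD site, was found in 1 of the 10 promoters, that of Lyz1, on the opposite strand from 230 to 225 bases before the start, and in 14.7% of all promoters. TTGCAA, a C/EBP core that reads the same on both strands, was found in 1, that of Slpi, from 34 to 29 bases before the start, and in 6.23% of all promoters. A match describes the letters and no binding.

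S100a8 and S100a9 together form calprotectin, which withholds zinc and manganese and fills the neutrophil cytoplasm, and both were near the floor of the arrays. S100a8 had a signal of 21.1 in Mob1DKO cells against 4.70 in WT cells, and S100a9 had 17.1 in Mob1DKO and 2.87 in WT. Both WT values were not well above background, so no fold is given, and the bound came to less than 1-fold. The raw S100a8 spot read 89 over a local background of 66 in Mob1DKO cells against 75 over 68 in WT cells, and the raw S100a9 spot 86 over 70 in Mob1DKO and 74 over 66 in WT. Although the 2-fold rule called both higher, their differences of 1.26 and 1.67 sat beside medians of 1.25 and 1.76 among the 200 genes nearest to them in level. Both differences turned to −0.39 and −0.53 under the other background correction. Having entered through the Mob1DKO array alone, they were selected toward the higher direction and support nothing about the pair.

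**Figure D3:**
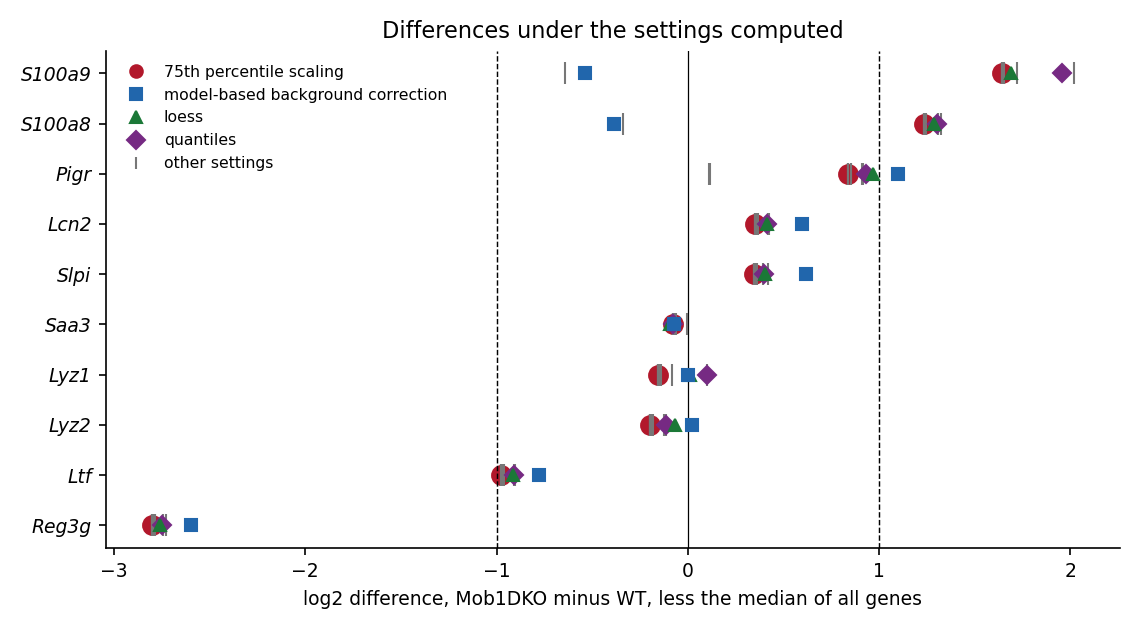
The log2 difference, Mob1DKO minus WT, of each antimicrobial gene less the median of all genes in the same setting; red circles are the values scaled to the 75th percentile, other symbols are other settings, and dashed lines mark 2-fold. Reg3g stays below −1 in every setting, Lcn2, Slpi and Pigr above 0, and S100a8 and S100a9 lie on both sides of 0. No setting uses the dimmer Pigr probe alone, which differed by −0.60 when scaled to the 75th percentile.

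Lyz2, Lcn2, Ltf and the S100 pair are also leukocyte genes, and leukocyte markers were set beside them. Of 25 neutrophil markers with a probe, 10 failed the background test on both arrays, among them Ngp, and the summed signal, in units of the array's 75th percentile, was 1008 in Mob1DKO cells against 906 in WT cells. Most of that sum came from Hp, Csf3r and Chil1, which differed by 0.19, 0.27 and −0.06 and of which Hp and Chil1 also stand in the epithelial lists. Without these 3 the sum was 35.6 in Mob1DKO and 35.2 in WT. Most of that remainder came from 1 gene again, Hdc, at a level of 4.81 in Mob1DKO and 4.72 in WT. Of the 15 measured, 2 were called higher and 1 lower. Ltb4r1, a leukotriene B4 receptor and the only call measured on both arrays, was 3.84-fold lower. Mpo was at least 1.05-fold higher and Stfa1 has no fold, both on the Mob1DKO array only, and normexp put them at −0.04 and −0.32. Elane differed by −0.11 and Camp by −0.38. Of 22 macrophage markers 8 failed it on both, Siglecf included, and their summed signal was 32.2 in Mob1DKO and 35.4 in WT. Of the 14 macrophage markers measured, 3 were called higher and 1 lower, with a median of 0.20 that normexp turned to −0.12. Beside the neutrophil and macrophage counts stand 3.79% called higher and 2.91% lower over all genes that passed on 1 array or both. Chil3, a chitinase-like protein of alveolar macrophages, was 17.8-fold lower and Fabp4, a fatty acid carrier, 2.14-fold higher, which normexp put at −2.54 and 0.20. Ear2 and Ccr2 were called higher through the Mob1DKO array only and have no fold, and Marco differed by 0.19. Of 10 pan-leukocyte markers 5 failed it on both, Ptprc included, with a summed signal of 8.93 in Mob1DKO and 11.6 in WT. Without the 3 brightest of these markers the sum was 0.379 in Mob1DKO and 0.329 in WT. The median of the 5 measured was 0.06, which normexp turned to −0.26. What share of the members' signal comes from leukocytes was not tested.

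Markers of airway secretory cells mostly lay lower on the Mob1DKO array, as Reg3g and Ltf did. Reg3g, Ltf and Pigr also stand in the club and secretory airway list and are left out of its counts. Pigr did not lie lower by both probes, being 0.86 higher by the brighter and differing by −0.60 by the dimmer. Of 10 goblet cell markers 9 were called lower, with a median of −1.62 and a summed signal of 140 in Mob1DKO cells against 509 in WT cells. Of 14 club and secretory airway markers 5 were called lower and 1 higher, Gabrp at a log2 difference of 1.43. The median of the 14 was −0.78, which was −0.52 under normexp and −0.25 after quantile normalization. Their summed signals were 6106 in Mob1DKO and 10186 in WT. Bpifb1 and Muc5b stand in both the goblet and the club list and are counted in each. Of all genes measured on both arrays, 1.43% were called lower and 1.25% higher. Scgb1a1, the club cell secretoglobin, differed by −0.84, but the 20 brightest genes of the arrays, none of them an antimicrobial member, all lay below 0 with a median of −0.59, and Actb, a cytoskeletal actin, differed by −0.79. The 15 alveolar type 2 markers gave none in either direction, with a median of −0.20 that the other background correction turned to 0.07. The part of these markers in the Reg3g and Ltf values was not tested.

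Among 30 measured relatives of the members, such as other lectins, collectins, defensins and BPI-fold proteins, 3 were called lower and 1 higher. Over all genes that passed on 1 array or both, 2.91% were called lower and 3.79% higher. The median difference of the relatives was −0.29, with 23 below 0, against 0.02 for all genes. Bpifb1, a BPI-fold protein of airway goblet cells, had a signal of 19694 in Mob1DKO cells against 33835 in WT cells and was 3.23-fold lower. It is also counted in the goblet and the club list. Defb3, a beta-defensin, and Itln1, an intelectin, passed the background test on the WT array only. By the bound they were at least 7.97-fold and 3.95-fold lower. The other background correction put them at −1.86 and −1.17, smaller than these bounds. The 1 call in the other direction was Duoxa2, a maturation factor of the dual oxidase, at least 2.01-fold higher, which the other background correction put at −0.10. Bpifa1, an abundant secreted BPI-fold protein, differed by −0.72 and Saa1 by −0.40; Reg3a and Reg3b passed the background test on neither array.

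The IL-17, IL-22, IL-6 and IL-1 inputs of the acute-phase program showed no call among 30 measured genes, and their median difference was 0.09. Over all genes that passed on 1 array or both, 6.70% were called, so few calls would be looked for among 30. The differences of the 30 ran from −0.76 to 0.82, with 20 above 0 and 10 below. Rela, the NF-kB subunit p65, and Cebpd, a C/EBP factor of the acute-phase response, named for their strong signals, differed by 0.13 and 0.07. Il17a, Il22, Il1b and Il22ra1 passed the background test on neither array.

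**Figure D4:**
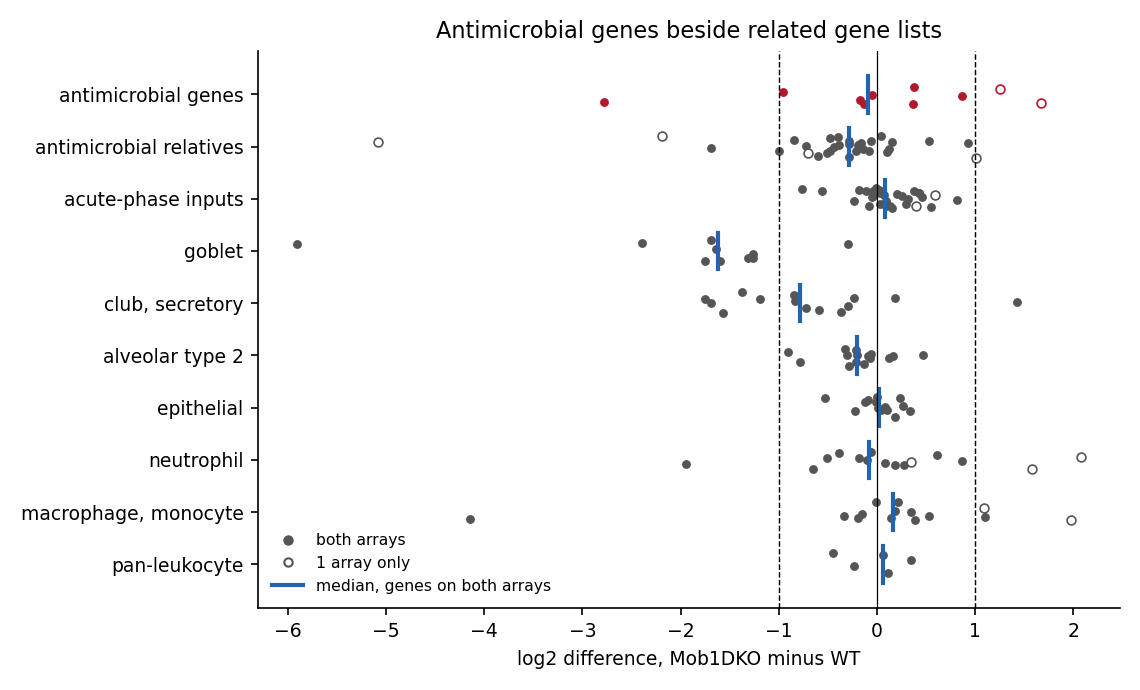
The log2 difference, Mob1DKO minus WT, of each gene in the related and marker lists, a row for each list, with the antimicrobial genes in red in the top row; open circles were well above background on 1 array only, blue bars are medians of the genes on both arrays and dashed lines mark 2-fold. The goblet cell row lies at a median of −1.62 and the acute-phase inputs at 0.08.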

How the data were processed

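Each Agilent 1-colour array was deposited as scanner output with intensity values per spot, made with Feature Extraction 10.7.1.1 per the file headers and 9.5.1.1 per the submitters' processing notes. The series value table was deposited as intensity with its scale unstated; against the scanner values its columns match a quantile normalization within 0.1% for 99.5% and 99.2% of probes, and both columns have a median of 27.3. From the processed signal, log2 values were computed and the 75th percentile of the 55681 probes that are no controls was subtracted within each array. RefSeq accessions named 27235 probes (20660 genes), and 28446 stayed unnamed. A gene took its brightest probe of those that passed the scanner's background test on 1 array or both. Where the dimmer array was not well above background, only a bound was given, from the lowest level that was. With 1 array per group nothing was tested, and precision is limited by how few arrays there are. The calling step was run on simulated data with known differences as a check of its code, not of the arrays. Alternatives were median, quantile, loess (span 0.3), housekeeping and no scaling, normexp (limma 3.58.1, R 4.3.3, offset 50, on the median spot and background signals, the spot signals that the files used here hold), the series table, other filters, probe rules, a floor and a 1.5-fold limit.

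All 10 members were described with every probe. From each related list, up to 4 called genes by size were to be named, with preset defining markers. Where under 2 were called, the 2 brightest were to be named. This rule was not followed throughout. Among others, the goblet calls Clca1 and Tff2, the club call Krt15 and the B cell call Tnfrsf17 were left out. Genes given as not above background, and Slc22a17, Hp, Csf3r, Chil1, Hdc, Actb, Cd79b, Mzb1, Bpifa1 and Saa1, were chosen after their values were seen. Members, lists and comparisons were chosen with earlier results of these data known. Proteins were planned for the lysozymes and calprotectin but not used here; the lysozyme and Reg3g promoters were added after the values were seen. Promoters and gene names came from RefSeq GRCm38.p6. Python 3.11.15, numpy 2.4.6, pandas 2.3.3, Biopython 1.88 and matplotlib 3.10.9 were used.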

Additional observations from a re-analysis of the deposited data

How the results depend on the processing

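No paired analysis was possible because each group holds 1 array, and the replicate number only names it. Of the 10 members, 2 (S100a8, S100a9) were called higher and 1 (Reg3g) lower. The count higher became 5 with no scaling, 1 (Pigr) under normexp, 0 with genes required on both arrays and 0 with a floor at the lowest level well above background. At 1.5-fold the count lower became 2 (Reg3g, Ltf) and the count higher 3, with Pigr added. The median of the members, 0.16, became 1.07 with no scaling, 0.26 with housekeeping genes, 0.27 with quantiles, 0.27 in the series table, −0.034 under normexp, −0.093 with both arrays required, 0.038 with the mean of probes, 0.038 with the median of probes and −0.15 with the floor. The calls over all genes, 572 higher and 439 lower, became 6149 and 174 with no scaling, 99 and 173 under normexp, 174 and 198 with both arrays required and 1220 and 1019 at 1.5-fold; the floor gave 294 higher and no filter 1208 lower. The share of calls that were higher, 56.6%, was 97.2% with no scaling, which shifted the median of all genes by 0.91, 64.5% with housekeeping genes (shift 0.11), 46.8% with both arrays required, 39.9% with no filter, 43.2% with the floor and 36.4% under normexp. S100a8 turned to −0.39 under normexp and −0.33 with the floor, and S100a9 to −0.53 and −0.63; the floor does so by construction, at −4.10 in Mob1DKO cells against −3.45 in WT cells, and otherwise the cause was not tested. The Reg3g call and its direction were the same in every setting computed.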

Other observations

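Among the cargo and receptors of the antimicrobial proteins, Jchain, the chain that joins the IgA and IgM carried by the Pigr receptor, was at least 1.98-fold higher on the Mob1DKO array, with a signal of 52.6 against 7.81 on the WT array, a value that failed the background test. Under normexp its difference was 0.16, and the B cell marker Cd79a, at least 3.38-fold higher, was at 0.20 in the same setting. Both passed the background test on the Mob1DKO array only, and the B cell markers measured on both arrays, Cd79b and Mzb1, differed by 0.30 and 0.31 and were not called. Ager, the receptor for advanced glycation end products, to which S100 proteins bind, differed by 0.42. The lipocalin receptors lay slightly higher on the Mob1DKO array: Lrp2, the endocytic receptor megalin, by 0.49, and Slc22a17 by 0.31, both under 2-fold.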
